A study of Mus musculus with 55 samples.

Results

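Unstimulated primary mouse neurons were compared at 2 stages of culture, 7DIV and 21DIV (days in vitro), and the changes are described across gene families and pathways. The 6 samples, 3 at each stage, were chosen by their labels from the 55 samples of the series. They belong to a maturation experiment of 28 samples, in which the other 22 were stimulated. The stimuli were KCl or bicuculline plus 4-aminopyridine, each for 15 min or 3 h. The neurons came from forebrain, that is cortex and hippocampus, of CD1 mouse embryos of mixed sex taken late in gestation, and were kept in Neurobasal-A medium with B27. No drug was added to these basal wells at either stage. The older samples are labelled 23 DIV, and the study's name for that stage, 21DIV, is used here. Unstimulated samples of a second experiment, cited below, are labelled 21 DIV, so the 2 sets differ in age as well as in experiment. RNA with a poly(A) tail was made into 3′ end libraries by CEL-Seq2, so a gene's counts report its 3′ end and are not scaled by length. The cultures held several forebrain regions and cell types together, and in such bulk samples fewer cells of a type and less RNA per cell cannot be told apart. The labels number the replicates 2, 3 and 4 at 7DIV and 1, 2 and 3 at 21DIV without saying whether they came from separate animals, so p-values measure the spread between these samples only. Codes in the sample descriptions, whose meaning is not given, differ between the stages, so that stage and whatever they mark cannot be told apart.

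Neurons placed in culture first extend axons and dendrites, with large amounts of tubulin, microtubule-associated proteins and growth cone proteins. They then form synapses, change the mix of their ion channels and chloride transporters, and replace several embryonic members of gene families by adult ones. Glutamatergic neurons and several classes of GABAergic interneurons mature side by side in forebrain cultures, and glial precursors that survive the dissection can divide and differentiate among them.

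Counts assigned to genes were 2136188, 1659263 and 3663781 per sample at 7DIV and 5674861, 5576321 and 9251452 at 21DIV, so that low levels are better resolved at 21DIV. A count of 3 corresponds to between 0.819 and 1.81 CPM (a gene's share of all counts on genes, scaled to a fixed library size with TMM factors) at 7DIV and to between 0.324 and 0.538 CPM at 21DIV. The study describes the cultures as neuron-enriched with few glia, and marker genes were read against that label. Pan-neuronal markers summed to 22198 to 22799 CPM at 7DIV and 19912 to 21882 CPM at 21DIV. Astrocyte markers summed to 1263 to 1732 CPM at 7DIV and 9131 to 10087 CPM at 21DIV, and 21 of 22 tested were higher at 21DIV, with a median log2 fold change of 2.40. Oligodendrocyte lineage markers summed to 477 to 754 CPM at 7DIV and 2595 to 3466 CPM at 21DIV, and all 13 that were tested, of 19 listed, were higher. These sums include Sox10, whose counts are uncertain because it overlaps the annotated Polr2f gene, at 297, 133 and 205 CPM at 7DIV and 892, 1611 and 1499.5 CPM at 21DIV. Without it the other 12 tested were higher too, and the sums were 345 to 464 CPM at 7DIV and 1703 to 1855 CPM at 21DIV. The filter kept genes over 5 CPM in 2 or more samples, so a marker under that level at 7DIV could enter only through 21DIV. For such markers the direction was fixed in advance, and the counts of glial markers called higher are a description. Of 15 microglial markers only 2 passed the filter on low counts, of which Aif1 was called lower, from 11.8 to 3.54 CPM, and C1qa, Cx3cr1, P2ry12 and Trem2 were at 0.701 CPM or less in every sample. Of endothelial, mural and fibroblast markers 3 were tested, of which 2 were higher and 0 lower. Glial transcripts therefore moved with stage, and their part in the results below was not tested.

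Among 10506 genes tested, 3476 (33.1%) changed at least 1.5-fold at an adjusted p under 0.05, from the quasi-likelihood test of edgeR after Benjamini and Hochberg, which gives every adjusted p below. At 21DIV 1907 genes (18.2%) were higher and 1569 (14.9%) were lower, and these shares are the background against which each gene list below is read. The higher genes moved further, with a median log2 fold change of 1.32 against -0.97 for the lower genes, and 480 of them changed at least 4-fold against 158 of the lower genes. The median over all tested genes was 0.01. Samples of the stages did not overlap for 5210 tested genes (49.6%), and 3384 of the genes called were among them. The share of all counts on the higher genes went from between 10.3% and 10.7% at 7DIV to between 25.5% and 26.6% at 21DIV. That on the lower genes went from between 26.1% and 26.6% to between 11.8% and 12.1%. These genes were chosen by the same test, so both shares are a description.

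**Figure D1:**
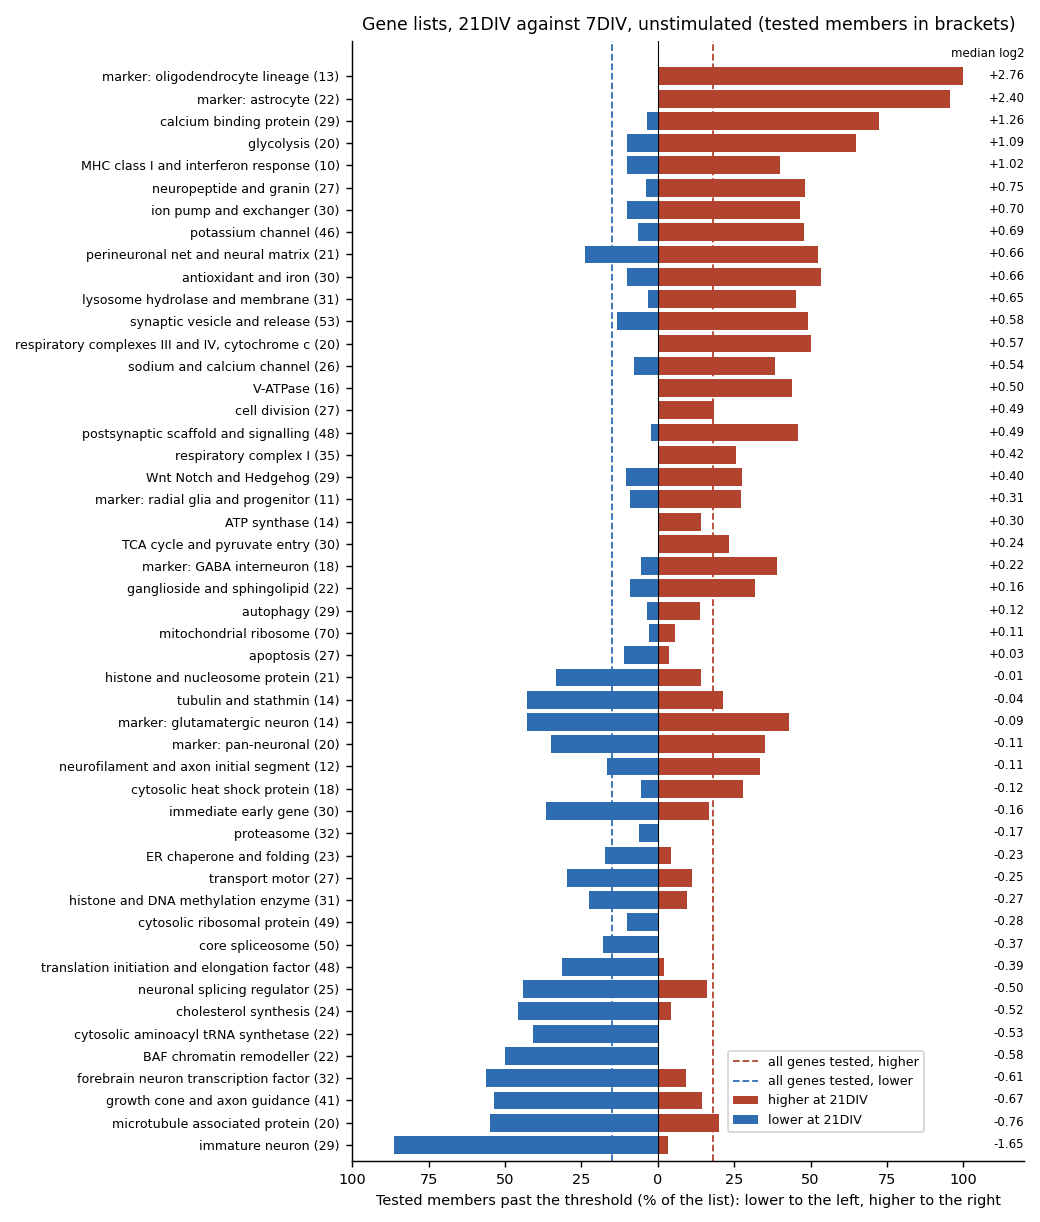
Bars give, for each list of at least 10 tested genes (tested members in brackets), the percentage called lower at 21DIV to the left of 0 and called higher to the right, with the median log2 fold change of the list at the margin. Dashed lines mark the same percentages over all tested genes, 14.9% lower and 18.2% higher; immature neuron genes and microtubule-associated proteins stand at the bottom, and glial markers, calcium binding proteins and glycolysis at the top.

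The largest moves in mean CPM were those of abundant transcripts. Among the 10 largest falls in mean CPM, the alpha tubulin gene Tuba1a had 11750.2, 12299 and 11845 CPM at 7DIV and 4118, 4589.6 and 4579.7 CPM at 21DIV. Nnat, which encodes neuronatin, had 9393, 10588 and 8332 CPM at 7DIV and 3167, 3812 and 3444 CPM at 21DIV. Mapt, which encodes tau, had 7198, 6238 and 5485 CPM at 7DIV and 1160.3, 1026 and 1152 CPM at 21DIV, so that all 3 transcripts fell with no overlap between stages. Among the 10 largest rises, the glycolytic enzyme gene Aldoc had 342, 301 and 432 CPM at 7DIV and 2896, 4084 and 3727 CPM at 21DIV, and the cell surface protein gene Thy1 had 299.5, 282 and 242 CPM at 7DIV and 2537, 2426 and 2597 CPM at 21DIV. Trim9, which encodes a neuronal ubiquitin ligase, had 1135, 1254 and 1359.5 CPM at 7DIV and 4028, 3859.5 and 3643 CPM at 21DIV. Chn1, which encodes a Rac GTPase-activating protein, and Camk2n1, which encodes an inhibitor of CaM kinase II, rose from 546 to 3424 CPM and from 132 to 2046 CPM. Nnat, Trim9, Chn1 and Camk2n1 lie outside the naming rule of the lists and were chosen after their values were seen. The 3 samples at 21DIV were uneven for several of these transcripts, with Camk2n1 at 1353, 1719 and 3067 CPM. The rise of Chn1 was not seen in 3 further unstimulated samples from a second experiment, normalized separately. Those samples are labelled 21 DIV, whereas the older samples above are labelled 23 DIV. Chn1 was at 532, 479 and 529.5 CPM in the second experiment against 539, 483 and 616 CPM at 7DIV. Agreement in size differed by gene there. Aldoc rose less, to 946, 965 and 854 CPM, whereas Tuba1a was at 3633, 3961 and 2975 CPM, below its values at 21DIV above.

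Genes of neuronal growth were mostly lower at 21DIV. Of 29 tested immature neuron genes, 25 were lower at 21DIV and 1 was higher, with a median log2 fold change of -1.65. Dcx, which encodes the microtubule-binding doublecortin of migrating neurons (chromosome X, 143855842 to 143933396 of GRCm38), had 319.8, 301 and 342 CPM at 7DIV and 27, 28.7 and 26.3 CPM at 21DIV. The fitted log2 change of Dcx was -3.56 (standard error 0.14), with an adjusted p of 1.8e-09. Nrep had 2109.5, 1871 and 2346 CPM at 7DIV and 234, 192 and 204 CPM at 21DIV, and Dpysl3, a collapsin response mediator gene that acts in growth cones, had 2316, 1752 and 1820.0 CPM at 7DIV and 217, 243 and 202 CPM at 21DIV. The log2 fold changes of Nrep and Dpysl3 were -3.33 (standard error 0.13) and -3.15 (standard error 0.14), and the samples of the stages lay about an order of magnitude apart. In the unstimulated samples at 21DIV of the second experiment Nrep was at 198, 208 and 174.5 CPM. Dpysl3 fell less there, to 827.5, 428 and 467.5 CPM. The transcription factor genes Sox4 and Sox11, which act in newborn neurons, fell by 2.33 and 2.24 on the log2 scale. Gap43, the growth cone protein gene, fell less, from 2197 to 1069.7 CPM. Rnd2, which encodes a small GTPase of migrating neurons, was the exception that rose, from 314 to 549.6 CPM (0.81 (standard error 0.15) on the log2 scale).

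**Figure D2:**
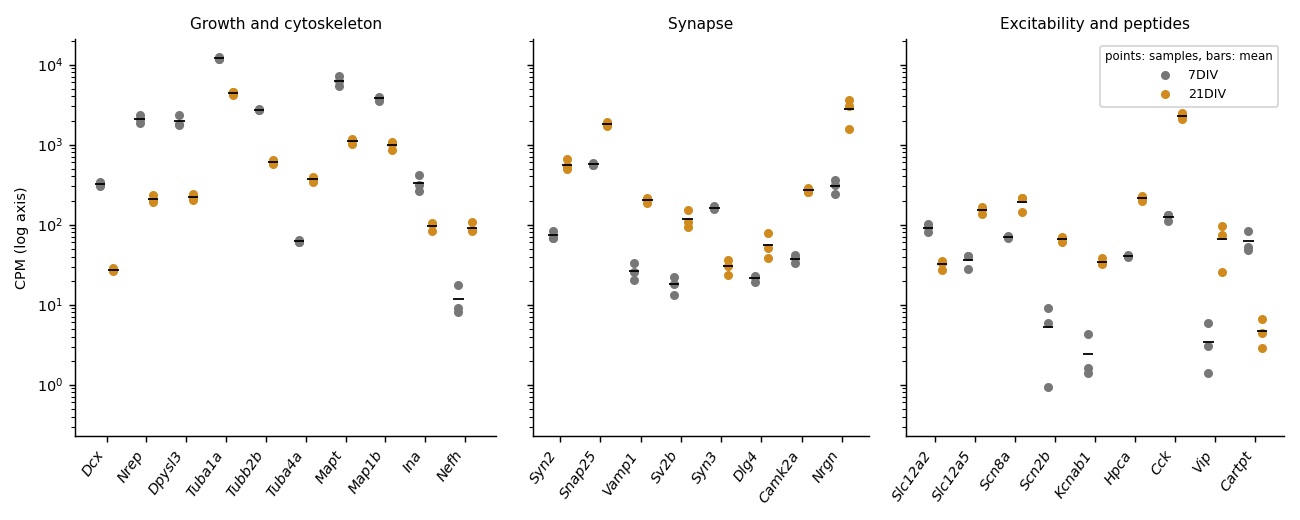
Points give CPM on a log axis in each of the 3 samples at 7DIV (grey) and 21DIV (orange), with bars at the means, for genes of growth and cytoskeleton, of synapses and of excitability and peptides. All genes shown separate the stages without overlap, with Dcx the lowest log2 fold change (-3.56) of the growth genes and Cck (4.19) and Vip (4.08) far above 0.

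Cytoskeletal genes moved in both directions, by family member. Of 20 tested genes of microtubule-associated proteins 11 were lower and 4 higher (median -0.76), and of 14 tubulin and stathmin genes 6 were lower and 3 higher (median -0.04). Map1b, the main embryonic member of its family, had 3922, 3855 and 3546 CPM at 7DIV and 852, 1086 and 1026 CPM at 21DIV, while its adult relative Map1a had 254, 208 and 195 CPM at 7DIV and 347, 412 and 409 CPM at 21DIV. Mapt fell by 2.50 and Map6, which encodes a microtubule-stabilizing protein, by 3.04 on the log2 scale, whereas Map2 of dendrites went from 826 to 517 CPM. Among alpha tubulins Tuba4a rose, with 60, 64.8 and 60.2 CPM at 7DIV and 345, 367 and 392 CPM at 21DIV, against the fall of Tuba1a. Among beta tubulins Tubb2b and Tubb3 fell to 609.8 and 493 CPM, Tubb4b rose to 157 CPM, and Tubb4a, at 559, 533 and 455 against 664, 814 and 835 CPM, did not reach the fold threshold. How the authors' counting assigned reads that match several near-identical tubulin genes is not given in the sources used here, so values of single tubulins are uncertain to that extent. Tppp, which encodes a tubulin polymerization protein abundant in oligodendrocytes, rose from 13.7 to 66.9 CPM, beside the rise of the oligodendrocyte markers above.

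Intermediate filaments moved in opposite directions. Nefh, the heavy neurofilament gene, which is the last of the neurofilament genes to appear in axons, had 8.03, 17.7 and 9.10 CPM at 7DIV and 107, 85.6 and 83.4 CPM at 21DIV, which gave log2 fold change 3.06 (standard error 0.26, adjusted p = 8.75e-07) by edgeR's quasi-likelihood test. Ina, which encodes the alpha-internexin of young axons, had 417, 314 and 264 CPM at 7DIV and 83.6, 103 and 106 CPM at 21DIV. Nefm rose from 38.3 to 65.2 CPM, and Nefl, at 141, 142 and 118 against 159.5, 99.6 and 83.3 CPM, overlapped between stages and did not pass the test. At the axon initial segment, where action potentials start, Kcnq3 of the M-type potassium channel and Sptbn4 of its spectrin scaffold rose from 32.1 to 120.2 CPM and from 13.7 to 28.2 CPM.

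Genes of axon guidance and of transport motors fell more often than the background. Of 41 guidance genes 22 were lower and 6 higher (median -0.67). The ephrin ligand gene Efnb3 had 529, 584 and 473 CPM at 7DIV and 152, 124 and 110.4 CPM at 21DIV, and the adhesion molecule gene L1cam had 686, 723 and 760.2 CPM at 7DIV and 163, 222 and 239 CPM at 21DIV. The semaphorin receptor genes Plxna3 and Nrp1 fell from 64.2 to 15.6 CPM and from 89.6 to 34.4 CPM. In the other direction Nrcam, an adhesion molecule of the initial segment and node, rose from 95.3 to 203 CPM, Epha4 from 42.6 to 89.9 CPM and Unc5d from 15.8 to 34.9 CPM. Without replicate 3 at 21DIV 3 guidance genes were called higher. Of 27 motor genes 8 were lower and 3 higher, the largest fall being that of the kinesin gene Kif26b, with 43.9, 34.8 and 38.6 CPM at 7DIV and 5.78, 6.18 and 5.36 CPM at 21DIV.

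Transcription factors that specify cortical neurons were mostly lower. Of 32 tested 18 fell and 3 rose (median -0.61). Pou3f1, a POU factor of cortical neurons, had 231, 192 and 169.5 CPM at 7DIV and 27.9, 17.6 and 18.2 CPM at 21DIV. Fezf2, which specifies subcerebral projection neurons, had 262, 310.4 and 328 CPM at 7DIV and 46.8, 69.2 and 72.4 CPM at 21DIV. The log2 fold changes of Pou3f1 and Fezf2 were -3.22 and -2.25. Rora, a nuclear receptor gene, rose from 10.2 to 41.5 CPM and Etv1 from 25.3 to 50.3 CPM, while Myt1l, at 144, 158 and 155 against 111, 184 and 147 CPM, and Cux2, at 17.9, 40.9 and 22.8 against 28.9, 39.4 and 36.9 CPM, overlapped between stages.

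Genes that regulate chromatin and splicing were called lower more often than higher in the main test. None of 22 tested BAF (SWI/SNF) remodeller genes rose and 11 fell, with a median of -0.58. The neuronal subunit genes Actl6b, Dpf1 and Ss18l1, which replace progenitor subunits when neurons leave the cell cycle, fell from 356 to 224 CPM, from 67.5 to 43.8 CPM and from 51.6 to 20.6 CPM. Their progenitor counterparts Actl6a and Ss18 went from 9.12 to 7.64 CPM and from 10.7 to 11 CPM and did not pass the test, whereas Phf10, the counterpart of Dpf1, fell from 118 to 57.7 CPM. Of 21 histone and nucleosome protein genes 7 fell and 3 rose, or 1 without replicate 4 at 7DIV. Histone and DNA methylation enzymes were closer to the background, with 7 of 31 lower and 3 higher. Among the histone and DNA modifying enzymes, the deacetylase gene Hdac9 fell from 169.6 to 66.4 CPM and Hdac11 rose from 19.8 to 50.2 CPM. The DNA methyltransferase gene Dnmt1 was at 32.6, 58 and 58.1 against 37.9, 40.7 and 43.1 CPM and Dnmt3a at 107, 118 and 121 against 129, 136 and 124 CPM, and neither passed the test. Of 25 splicing regulators 11 fell and 4 rose. Rbfox3, which encodes the neuronal nuclear antigen NeuN, had 234, 231 and 214 CPM at 7DIV and 378, 612 and 755 CPM at 21DIV, whereas its relative Rbfox1 had 379, 409 and 320.5 CPM at 7DIV and 274, 411 and 328 CPM at 21DIV and did not pass the test. Mbnl2 rose from 208 to 478 CPM, as did Qk, a regulator known from glia, from 62.8 to 218 CPM. Elavl3, an RNA-binding protein of young neurons, fell from 355 to 186 CPM. The core spliceosome had 9 of 50 genes lower and none higher, with 47 of 50 below 0 and a median of -0.37. Its share of lower genes was close to the background of 14.9%. Under a test against a 1.5-fold change itself (glmTreat in edgeR), 3 of 22 BAF genes and 3 of 50 core spliceosome genes were called lower. Of 25 splicing regulators 3 were lower and 3 higher there, so lower calls no longer outnumbered higher ones. Over all 10506 tested genes glmTreat called 693 lower and 1103 higher. Over the 16 alternatives 3 to 13 BAF genes were lower and 0 to 1 higher.

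Translation factors and tRNA synthetases were called lower more often than the background, with small changes. Of 48 translation factors 15 were called lower and 41 had a negative log2 fold change (median -0.39), and of 22 cytosolic aminoacyl tRNA synthetases 9 were called lower and 21 were negative (median -0.53). Cars, the cysteine synthetase gene, had 119, 126 and 126 CPM at 7DIV and 42.9, 43.3 and 46.8 CPM at 21DIV. Gars, that for glycine, had 477, 510.1 and 466 CPM at 7DIV and 228, 197 and 216 CPM at 21DIV, and neither gene overlapped between stages. The ribosome itself moved little, with 5 of 49 tested ribosomal protein genes lower and none higher (median -0.28), Rpl15 among them at 387, 368 and 386 against 222, 198 and 217 CPM, and 8 were lower without replicate 3 at 7DIV. A further 30 ribosomal protein genes of 79 listed were under the filter although every cell uses them, and Hspa8, the constitutive heat shock protein gene, was at 0.945, 0.611 and 0.536 against 0.175, 0.909 and 0.223 CPM, so that low counts of such abundant genes in this table do not show low expression. Under a test against a 1.5-fold change itself (glmTreat in edgeR) no translation factor was called lower. The 1 translation factor that rose, Eef1a2, is the adult neuronal isoform of elongation factor 1A.

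Elongation factor 1A delivers aminoacyl tRNA to the ribosome and is encoded by 2 paralogs, Eef1a1 in most growing cells and Eef1a2 in neurons and muscle. Eef1a2 had 355, 289.6 and 296 CPM at 7DIV and 931, 838 and 823 CPM at 21DIV, and Eef1a1 had 206, 202 and 217 CPM at 7DIV and 129, 135 and 143 CPM at 21DIV. The share of Eef1a2 in the 3′ end counts of the pair was 63.2, 59 and 57.7% at 7DIV and 87.8, 86.1 and 85.2% at 21DIV, so every sample at 21DIV lay above every sample at 7DIV. Eef1a1 has many processed pseudogenes, and how reads shared with them were assigned is not given in the sources used here. The 250 bases before the start site of both genes are shown because the paralogs move in opposite directions from unlike promoters. They come from the RefSeq annotation of GRCm38.p6, both on the minus strand, at chr9:78481725-78481974 and chr2:181157016-181157265, written 5′ to 3′ along the gene.
Eef1a1: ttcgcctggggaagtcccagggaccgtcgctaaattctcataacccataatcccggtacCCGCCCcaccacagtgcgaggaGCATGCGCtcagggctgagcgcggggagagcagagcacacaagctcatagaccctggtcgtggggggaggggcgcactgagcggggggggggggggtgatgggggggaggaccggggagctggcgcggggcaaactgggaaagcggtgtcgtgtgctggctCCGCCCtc
Eef1a2: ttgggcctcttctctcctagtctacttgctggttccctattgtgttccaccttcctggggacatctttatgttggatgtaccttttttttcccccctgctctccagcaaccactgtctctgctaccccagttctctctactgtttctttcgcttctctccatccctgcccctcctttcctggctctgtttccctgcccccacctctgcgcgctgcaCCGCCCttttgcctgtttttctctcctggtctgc
Capitals mark matches on either strand to the GC box GGGCGG and to the NRF1 core GCATGCGC. The Eef1a1 window held 18 CpG dinucleotides, GC boxes 191 and 8 bases before the start and an NRF1 core 169 bases before it, and the Eef1a2 window held 4 CpG dinucleotides and 1 GC box 34 bases before the start. Of 27025 RefSeq promoter windows of this length 32.9% hold the GC box and 2.32% the NRF1 core, and a match is a description of the letters only.

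Among lists of energy metabolism, glycolysis had the largest share of rising genes. Of 20 tested glycolysis genes 13 were higher and 2 lower (median 1.09), and their summed level was 4388 to 4725 CPM at 7DIV and 12602 to 15004 CPM at 21DIV. Slc2a1, the glucose transporter of glia and endothelium, had 11.3, 5.50 and 12 CPM at 7DIV and 38.9, 52.5 and 62.4 CPM at 21DIV, while Slc2a3, the neuronal transporter, had 197, 189 and 174 CPM at 7DIV and 280.5, 175 and 233 CPM at 21DIV and did not pass the test. Pfkl, a phosphofructokinase gene, had 10.9, 12.8 and 11.2 CPM at 7DIV and 51, 33.6 and 59.5 CPM at 21DIV, which gave log2 fold change 2.06 (standard error 0.26). The neuronal enolase gene Eno2 and its ubiquitous relative Eno1 both rose, from 335 to 988 CPM and from 45.7 to 132 CPM, and the share of Eno2 in the pair overlapped between stages. Ldha and Ldhb of lactate dehydrogenase rose from 652 to 1408 CPM and from 111 to 199.5 CPM. Aldoc, listed both here and among the astrocyte markers, went from 358 to 3569 CPM, and Aldoa, named after its values were seen, from 943 to 3171 CPM. Hk1, the main hexokinase gene, was uneven, at 399.6, 358 and 683 against 1042, 529 and 726 CPM. Slc16a7, a monocarboxylate transporter of neurons, fell from 88.7 to 43.9 CPM.

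In mitochondrial lists the medians were smaller and few or no genes fell. Of 20 tested genes of complexes III and IV and cytochrome c 10 were higher (50.0%, median 0.57). Of 35 of complex I 9 were higher (25.7%, median 0.42, 34 above 0), and of 14 of ATP synthase 2 (14.3%, median 0.30). None was lower in any of these lists, and the background of higher genes was 18.2%. Over the 16 alternatives 4 to 10, 1 to 10 and 0 to 4 genes of these lists, in that order, were called higher. Without replicate 1 at 21DIV 6 genes of complexes III and IV and cytochrome c were called. Cox8a, a subunit gene of complex IV, had 929, 1069.8 and 867 CPM at 7DIV and 2589, 2151 and 2682 CPM at 21DIV, and Cox4i1 had 329, 312 and 347 CPM at 7DIV and 697, 608 and 725 CPM at 21DIV. The log2 fold changes of Cox8a and Cox4i1 were 1.37 (standard error 0.12) and 1.04 (standard error 0.12). Uqcr11 of complex III rose from 28.3 to 67.4 CPM, and Ndufa3 and Ndufb7 of complex I rose from 92.1 to 178 CPM and from 31.1 to 62.5 CPM. Of 30 genes of the citric acid cycle and pyruvate entry 7 (23.3%) were higher and none lower. They were led by the pyruvate dehydrogenase kinase gene Pdk2, with 21.3, 14.1 and 20.1 CPM at 7DIV and 79.8, 67.8 and 77.4 CPM at 21DIV. They included Got1 of the malate-aspartate shuttle, from 1139 to 2771 CPM. The mitochondrial ribosome was below the background in both directions, with 4 of 70 genes higher and 2 lower.

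**Figure D3:**
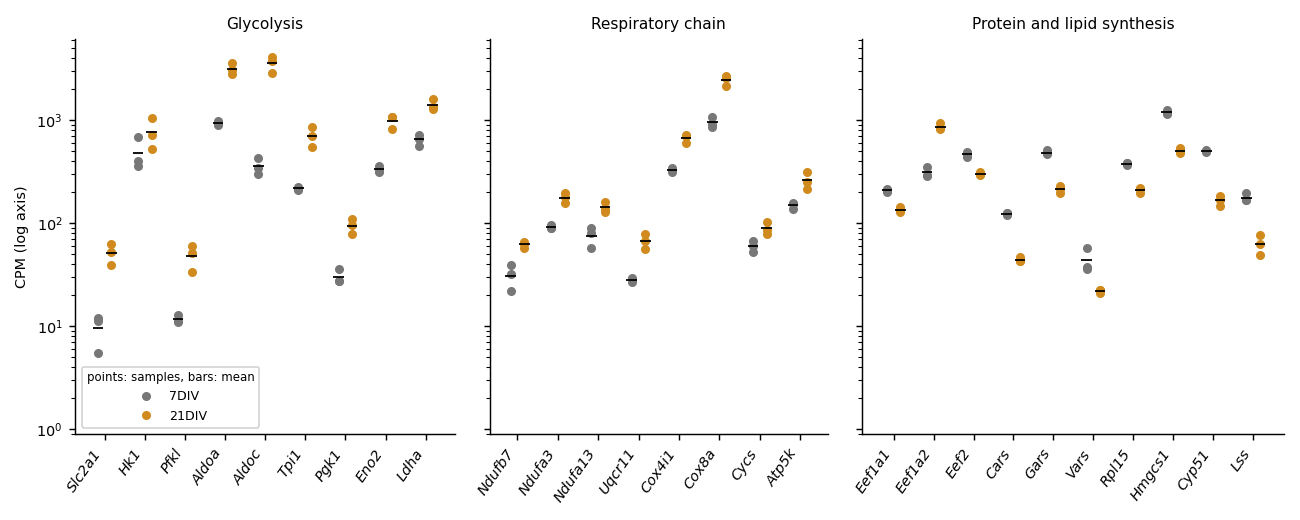
Points give CPM on a log axis in each of the 3 samples at 7DIV (grey) and 21DIV (orange), with bars at the means, for genes of glycolysis, of the respiratory chain and of protein and lipid synthesis; Aldoa, Tpi1 and Pgk1 were added after their values were seen. The glycolysis and respiratory genes shown have higher means at 21DIV, with overlap for Hk1, while genes of protein and lipid synthesis other than Eef1a2 are lower in every sample at 21DIV.

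Many genes of sterol synthesis fell, while lysosomal genes rose. Of 24 cholesterol genes 11 were lower and 1 higher (median -0.52). Hmgcs1 of the mevalonate pathway had 1142, 1185 and 1266 CPM at 7DIV and 534, 477 and 508 CPM at 21DIV, lower in every sample at 21DIV. Cyp51 and Lss of the later steps fell from 505 to 167 CPM and from 178 to 62.7 CPM. The gene that rose was Cyp46a1, whose product hydroxylates cholesterol for export from neurons, with 177, 178 and 183 CPM at 7DIV and 483, 371 and 392 CPM at 21DIV. Of 31 lysosomal genes 14 were higher and 1 lower (median 0.65), among them the protease genes Tpp1, from 13.7 to 59.4 CPM, Ctsb, from 523 to 939.8 CPM, and Ctsl, from 50.7 to 100.1 CPM. Scarb2, a lysosomal membrane protein gene, fell from 103 to 60.5 CPM. Of 16 genes of the proton pump that acidifies lysosomes and synaptic vesicles 7 were higher and none lower, with Atp6v1g2, its neuronal G subunit, at 621, 579 and 1054 against 1886, 1328 and 2162 CPM. Of 22 ganglioside and sphingolipid genes 7 were higher, among them St8sia5, a sialyltransferase of complex gangliosides, from 40 to 126 CPM, and 2 were lower, Sptlc2 and Sptssa of the first synthetic enzyme.

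Genes of both sides of the synapse rose more often than the background. Of 53 presynaptic genes 26 were higher and 7 lower (median 0.58), and of 48 postsynaptic genes 22 were higher and 1 lower (median 0.49). The synapsin genes, whose products tether synaptic vesicles, went 3 ways. Syn2 had 84.1, 68.4 and 67.2 CPM at 7DIV and 497, 539.5 and 658 CPM at 21DIV, which gave log2 fold change 2.95 (standard error 0.16, adjusted p = 1.64e-08) by edgeR's quasi-likelihood test. Syn3 had 172, 161 and 157 CPM at 7DIV and 23.7, 36.3 and 30.2 CPM at 21DIV, a fall of 2.44 on the log2 scale, and Syn1, at 1715, 1724 and 1664 against 2129, 2211 and 2474 CPM, did not reach the fold threshold. Thus the stages did not overlap for any synapsin gene, while the direction differed between members. Snap25, which encodes a SNARE protein of vesicle fusion, had 597, 558 and 555 CPM at 7DIV and 1716, 1816 and 1930.4 CPM at 21DIV. Vamp1, a second SNARE gene, had 33.1, 25.7 and 20.1 CPM at 7DIV and 211, 186 and 214 CPM at 21DIV, and both were higher in every sample at 21DIV. Sv2b, a vesicle glycoprotein gene, rose from 17.9 to 117 CPM, and Dnm1, the neuronal dynamin gene of endocytosis, from 262 to 815 CPM. Syt2, the calcium sensor of fast interneuron synapses, had no count at 7DIV and 7.19, 6.36 and 9.49 CPM at 21DIV, at least 5.72-fold above a floor of 3 counts per sample. Syt4 and Ppfia2 fell from 684 to 297 CPM and from 377 to 202 CPM.

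On the postsynaptic side the kinase gene Camk2a had 33.1, 42.2 and 37.8 CPM at 7DIV and 258, 291 and 258 CPM at 21DIV, while its relative Camk2b had 399.6, 369 and 415 CPM at 7DIV and 424, 321 and 424 CPM at 21DIV, overlapped between stages and did not pass the test. Camk2d, the isoform also known from other tissues, rose from 57.5 to 267 CPM. Nrgn, which encodes the calmodulin-binding neurogranin, had 315, 365 and 244 CPM at 7DIV and 1585, 3077 and 3665 CPM at 21DIV, and its lowest value at 21DIV, in replicate 1, was still above every value at 7DIV. Dlg4, which encodes the scaffold protein PSD-95, had 23.1, 22 and 19.3 CPM at 7DIV and 51, 38.7 and 78.9 CPM at 21DIV. Its relative Dlg3 also rose, from 25 to 48.4 CPM, and the share of Dlg4 in the pair overlapped between stages. Grip1 was the member that fell, from 48.9 to 28.3 CPM. Shank1, at 13.2, 26.9 and 19.8 against 9.64, 20.7 and 21.7 CPM, did not pass the test.

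Calcium binding proteins had the highest share of rising members outside the glial markers. Of 29 tested 21 were higher and 1 lower (median 1.26). The neuronal calcium sensor gene Hpca had 40.6, 39.7 and 41.2 CPM at 7DIV and 215, 198 and 228 CPM at 21DIV. Its relative Hpcal4 had 49.1, 48.3 and 57 CPM at 7DIV and 439.8, 396 and 385 CPM at 21DIV, and for both the 3 samples of a stage lay close together. S100a1 had 9.92, 6.11 and 11.8 CPM at 7DIV and 141, 139 and 171 CPM at 21DIV, and S100b, an astrocyte marker, rose from 0.961 to 26.5 CPM. Calb1, the calbindin gene, rose from 131 to 395 CPM. Cadps2, a gene of dense-core vesicle release, fell from 75.8 to 39.3 CPM.

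Ion channels and pumps changed in ways that differed between family members. Of 46 potassium channel genes 22 were higher and 3 lower (median 0.69). Kcnab1, a beta subunit gene of the Kv1 channels, had 1.42, 4.28 and 1.61 CPM at 7DIV and 32.4, 38 and 33.5 CPM at 21DIV. Kcnv1, a silent subunit gene, rose from 11.8 to 88 CPM, and Kcnj10, the inward rectifier of glia, from 17.5 to 145 CPM, beside the astrocyte markers. Kcnd2 of the A-type current fell from 104 to 44.4 CPM, and Kcna1, at 445, 327 and 258 against 381, 340.0 and 374 CPM, did not pass the test. Of 26 sodium and calcium channel genes 10 were higher and 2 lower (median 0.54). Scn8a, the sodium channel of mature axon initial segments, had 68.5, 70.3 and 72 CPM at 7DIV and 144, 218 and 214 CPM at 21DIV, and the auxiliary subunit gene Scn2b had 0.945, 9.16 and 5.89 CPM at 7DIV and 70.1, 60.9 and 68.4 CPM at 21DIV. The sodium channel gene Scn1a was at 11.3, 12.8 and 11.8 against 9.29, 19.8 and 14.2 CPM. Scn3a, a sodium channel gene of embryonic brain, was at 299.5, 264 and 249 against 102, 282 and 172 CPM, and neither it nor Scn1a passed the test. Cacna1h, a T-type calcium channel gene, fell from 77.4 to 37.4 CPM.

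The chloride cotransporters, which set whether GABA depolarizes or hyperpolarizes a neuron, crossed over. Slc12a2, which encodes the importer NKCC1, had 81.7, 92.3 and 102 CPM at 7DIV and 33.5, 34.9 and 27.1 CPM at 21DIV, which gave log2 fold change -1.54 (standard error 0.17, adjusted p = 1.13e-05) by edgeR's quasi-likelihood test. Slc12a5, which encodes the exporter KCC2, had 40.1, 28.1 and 40.4 CPM at 7DIV and 136, 156 and 164 CPM at 21DIV, which gave log2 fold change 2.05 (standard error 0.17, adjusted p = 1.02e-06) in the same test. The share of Slc12a5 in the counts of the pair was 32.9, 23.4 and 28.4% at 7DIV and 80.2, 81.7 and 85.8% at 21DIV. In the unstimulated samples at 21DIV of the second experiment Slc12a5 was at 196, 191 and 206 CPM and Slc12a2 at 30.3, 38.2 and 38.5 CPM. Of 30 genes of pumps and exchangers 14 were higher and 3 lower (median 0.70). Fxyd7, which encodes a regulator of sodium pumps, rose from 20.8 to 176 CPM and Fxyd6 fell from 389 to 158 CPM.

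Neuropeptide genes diverged by gene. Of 27 tested 13 were higher and 1 lower (median 0.75). Cck, which encodes cholecystokinin (chromosome 9, 121489824 to 121495694), had 130.4, 132 and 112 CPM at 7DIV and 2176, 2101 and 2505 CPM at 21DIV, which gave log2 fold change 4.19 (standard error 0.13, adjusted p = 2.29e-10) by edgeR's quasi-likelihood test. The rise of Cck was smaller in the unstimulated samples at 21DIV of the second experiment, at 455, 513 and 430 CPM. Vip, which encodes vasoactive intestinal peptide, had 1.42, 3.05 and 5.89 CPM at 7DIV and 25.4, 74.5 and 97 CPM at 21DIV, and Tac2, which encodes neurokinin B, rose from 8.29 to 76.3 CPM. Cartpt, which encodes the CART peptide, was the member that fell, with 84.1, 52.5 and 48.5 CPM at 7DIV and 4.38, 2.91 and 6.59 CPM at 21DIV, which gave log2 fold change -3.68 (standard error 0.31, adjusted p = 9.23e-07) by the same test. Sst, the somatostatin gene, was at 1709, 1865 and 1382 against 2119.7, 1774 and 1745 CPM, and Npy, the neuropeptide Y gene, at 281, 379 and 308 against 274, 424 and 512 CPM. Both overlapped between stages and did not pass the test. The 250 bases before the start sites of Cartpt (chr13:99900684-99900933, minus strand) and Vip (chr10:5638968-5639217, plus strand) are shown because the peptide genes moved in opposite directions and both are known for control through cyclic AMP.
Cartpt: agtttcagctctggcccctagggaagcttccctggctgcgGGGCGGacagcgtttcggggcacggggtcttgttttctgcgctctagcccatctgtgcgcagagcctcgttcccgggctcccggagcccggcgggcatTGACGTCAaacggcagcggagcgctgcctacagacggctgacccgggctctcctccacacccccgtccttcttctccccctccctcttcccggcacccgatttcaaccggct
Vip: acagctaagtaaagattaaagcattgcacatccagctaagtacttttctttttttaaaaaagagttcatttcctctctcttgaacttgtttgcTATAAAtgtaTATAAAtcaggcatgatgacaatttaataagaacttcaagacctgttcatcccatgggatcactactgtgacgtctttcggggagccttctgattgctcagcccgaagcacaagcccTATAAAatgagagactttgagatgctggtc
Capitals mark matches on either strand to the cAMP response element TGACGTCA, the GC box GGGCGG and the TATA box TATAAA. Cartpt held the response element 112 bases and a GC box 210 bases before the start, with 22 CpG dinucleotides, and Vip held TATA boxes 157, 147 and 30 bases before it, with 3 CpG dinucleotides. The full palindrome of the response element occurs in 1.62% and the TATA box in 13% of the 27025 windows, and the absence of the full palindrome from the Vip window says only that these letters are not there.

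Interneuron and excitatory markers were read as cell type lists. Of 18 interneuron markers 7 rose and 1 fell (median 0.22). Lhx6, a gene of interneuron fate, was at 8.03, 11.6 and 10.2 against 12.8, 7.09 and 11.1 CPM and did not pass the test, and Dlx2 fell from 32.8 to 16.6 CPM with overlap between stages. Pvalb, the parvalbumin gene, had at most 1.22 CPM in any sample at 7DIV and 7.01, 5.27 and 8.60 CPM at 21DIV. Of 14 glutamatergic markers 6 rose and 6 fell. The vesicular glutamate transporter gene Slc17a7 (VGLUT1) had 44.9, 36 and 31.1 CPM at 7DIV and 289, 533 and 477 CPM at 21DIV, and Slc17a6 (VGLUT2) had 101, 99 and 115 CPM at 7DIV and 79.1, 77.1 and 54.7 CPM at 21DIV. The share of Slc17a7 in the pair was 30.7, 26.7 and 21.3% at 7DIV and 78.5, 87.4 and 89.7% at 21DIV, and among the markers that fell were the early factors Neurod2 and Neurod6, from 484 to 125 CPM and from 535 to 153 CPM.

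Immediate early genes, which neurons induce within minutes of activity, differed at rest. Of 30 tested 11 were lower and 5 higher at 21DIV (median -0.16), against a background of 14.9% and 18.2%. Nr4a3, an orphan nuclear receptor gene, had 576, 470.4 and 509 CPM at 7DIV and 65.4, 77.8 and 80.7 CPM at 21DIV, and Npas4 had 286, 471 and 438 CPM at 7DIV and 108, 64.3 and 179 CPM at 21DIV. Fos had 64.2, 70.9 and 76.3 CPM at 7DIV and 21.9, 11.4 and 12.2 CPM at 21DIV, and Fosb, with 174, 57.4 and 46.3 CPM at 7DIV and 14, 9.81 and 14.1 CPM at 21DIV, was uneven at 7DIV. Among those higher, Arc, which regulates AMPA receptor endocytosis, had 20.3, 29.9 and 15.3 CPM at 7DIV and 76.8, 82 and 99.8 CPM at 21DIV. Ptgs2, which encodes cyclooxygenase 2, had 2.36, 2.44 and 4.02 CPM at 7DIV and 25.6, 30.2 and 42 CPM at 21DIV, and Nptx2, a secreted pentraxin gene of excitatory synapses on interneurons, had 21.7, 23.2 and 20.9 CPM at 7DIV and 107, 104 and 114 CPM at 21DIV. Bdnf, a neurotrophin gene, was at 217, 213 and 164 against 294, 196 and 218 CPM, and the transcription factor gene Egr1 at 30.7, 58.7 and 35.3 against 51.9, 49.4 and 56.2 CPM. Neither Bdnf nor Egr1 passed the test, and both overlapped between stages.

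Genes of the neural matrix moved in both directions. Of 21 tested genes 11 were higher and 5 lower (median 0.66). Vcan, which encodes versican of the embryonic matrix, had 27.9, 28.1 and 29.5 CPM at 7DIV and 4.91, 5.63 and 5.25 CPM at 21DIV, and Bcan, which encodes brevican of the adult matrix, had 26, 12.2 and 24.9 CPM at 7DIV and 79.1, 82.1 and 71.5 CPM at 21DIV. The link protein gene Hapln4 of perineuronal nets had counts of 3 or fewer in each sample at 7DIV and 15.3, 73.8 and 103 CPM at 21DIV, where replicate 1 lay well under the others. Tnr, which encodes tenascin-R, rose from 13.8 to 35.5 CPM, and Sparcl1, a synaptogenic protein gene known from astrocytes, from 171 to 791 CPM. Reln, the reelin gene, fell from 108 to 49.9 CPM, and Tnc, which encodes tenascin-C, fell too. Without replicate 2 or replicate 3 at 21DIV 3 matrix genes were called lower.

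Glial markers rose with stage, and lists whose members glia also express are given beside them. Astrocyte genes included Slc1a2, the glutamate transporter, with 71.8, 98.4 and 116 CPM at 7DIV and 977, 962 and 848 CPM at 21DIV, Apoe with 415, 390.4 and 528 CPM at 7DIV and 3062, 2809.5 and 2712 CPM at 21DIV, and Gfap with 7.56, 7.94 and 13.1 CPM at 7DIV and 89.9, 139.6 and 64.9 CPM at 21DIV. Gjb6, an astrocyte gap junction gene, had no count at 7DIV and 5.26, 6.36 and 3.80 CPM at 21DIV, at least 3.83-fold above the floor of 3 counts per sample. Aldh1l1 was the astrocyte marker that did not pass the test, at 29.3, 23.2 and 21.2 against 34.2, 22.5 and 26.7 CPM. Among oligodendrocyte lineage genes Olig1 had 138, 93.5 and 127 CPM at 7DIV and 588, 559.9 and 586 CPM at 21DIV, and the myelin gene Mbp rose from 4.41 to 37.6 CPM, while Mog, Mobp and Opalin of late myelination were at 2.41 CPM or less in every sample. Of 30 antioxidant and iron genes 16 were higher and 3 lower (median 0.66). Hmox1, the heme oxygenase gene, had 7.56, 2.44 and 2.95 CPM at 7DIV and 51.5, 45.6 and 52.5 CPM at 21DIV, and Gstm1, a glutathione transferase gene, had 351, 317 and 456 CPM at 7DIV and 2629.6, 1702 and 1789 CPM at 21DIV. The metallothionein genes Mt1, Mt2 and Mt3 rose from 195 to 820.3 CPM, 60.6 to 152 CPM and 2.56 to 12.2 CPM, and ferritin light chain Ftl1 fell from 374 to 209 CPM. Of 27 cell division genes 5 rose and none fell, against a background of 18.2%, among them Ccnd1 and Ccnd2, from 42 to 142 CPM and from 215 to 432 CPM. Of the cell division genes 2 were called without replicate 1 at 21DIV and 3 without replicate 2 or replicate 3 at 7DIV. Of 11 tested radial glia and progenitor markers 3 rose and 1 fell, Tnc. Those that rose were Sox2, from 152 to 364 CPM, Hopx, from 14.5 to 87.9 CPM, and Ptprz1, from 66.8 to 135 CPM. Nes, Vim and Fabp7, genes of dividing progenitors and young glia, overlapped between stages.

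The remaining lists had few called genes or few tested members. The proteasome had 2 of 32 genes lower and none higher, autophagy 4 of 29 higher and 1 lower, and ER chaperones and folding enzymes 1 of 23 higher and 4 lower. Among the latter Xbp1, the factor of the unfolded protein response, fell from 161 to 80.2 CPM. Cytosolic heat shock proteins had 5 of 18 higher, Cryab, the small heat shock protein alpha-B crystallin, from 30.4 to 124 CPM, and 3 without replicate 2 at 21DIV. Apoptosis genes were mostly not called, 1 of 27 higher and 3 lower. Within the apoptosis list Bax was at 27.4, 35.4 and 24.1 against 29.8, 33.4 and 30.7 CPM and Apaf1 at 11.8, 13.4 and 13.4 against 12.8, 18.4 and 18.5 CPM, and neither passed the test. Only 10 of 32 genes of MHC class I and interferon response were tested, and there B2m rose from 22.8 to 78.1 CPM while H2-D1, which shares sequence with other class I genes, fell from 229.6 to 102 CPM. Of 29 Wnt, Notch and Hedgehog genes 8 rose and 3 fell, with Sfrp1, a secreted Wnt antagonist, from 219 to 62.4 CPM, and 5 rose without replicate 2 at 21DIV. Counts this small moved with single samples, with 1 autophagy gene higher without replicate 4 at 7DIV, 1 apoptosis gene lower without replicate 3 at 21DIV and 2 MHC and interferon genes higher without replicate 3 at 21DIV.

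Shifts within gene families were measured in 29 pairs as the share of the second gene in the summed counts of the pair. The second gene is not the adult form in every pair, as with Slc2a3 of neurons against Slc2a1 of glia and endothelium. The counts of pairs are therefore not counts of shifts to adult forms. The share did not overlap between stages in 20 pairs, higher at 21DIV in 16 and lower in 4, and it overlapped in 9. Among single tested genes 49.6% did not overlap, and no such background was computed for shares of pairs. These shares compare 3′ end counts, so a change in share is firmer than the share itself. Beyond the pairs given above, the share of Bcan against Vcan was 41.5% ± 9.73 at 7DIV and 93.6% ± 0.500 at 21DIV (SD, n = 3), that of Tubb4a against Tubb2b 15.9% ± 1.33 at 7DIV and 55.7% ± 4.26 at 21DIV (SD, n = 3) and that of Camk2a against Camk2b 8.74% ± 1.35 at 7DIV and 41.1% ± 5.61 at 21DIV (SD, n = 3). Map1a against Map1b made 5.47% ± 0.524 at 7DIV and 28.3% ± 0.730 at 21DIV (SD, n = 3), and Kif5a against Kif5c, both kinesin-1 heavy chains, 59.9% ± 1.16 at 7DIV and 74.4% ± 2.62 at 21DIV (SD, n = 3). In the other direction, the share of Slc2a3 against Slc2a1 was 95.1% ± 1.89 at 7DIV and 81.2% ± 5.83 at 21DIV (SD, n = 3), beside a rise of Slc2a1, which glia also express. The share of Cplx1 against Cplx2 was 48.2% ± 0.267 at 7DIV and 37.5% ± 6.76 at 21DIV (SD, n = 3). The pairs that overlapped included all 3 BAF subunit pairs, both lactate dehydrogenases, and Ptbp1 with Ptbp2, which went from 10.8 to 7.77 CPM and from 71.6 to 50.5 CPM.

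**Figure D4:**
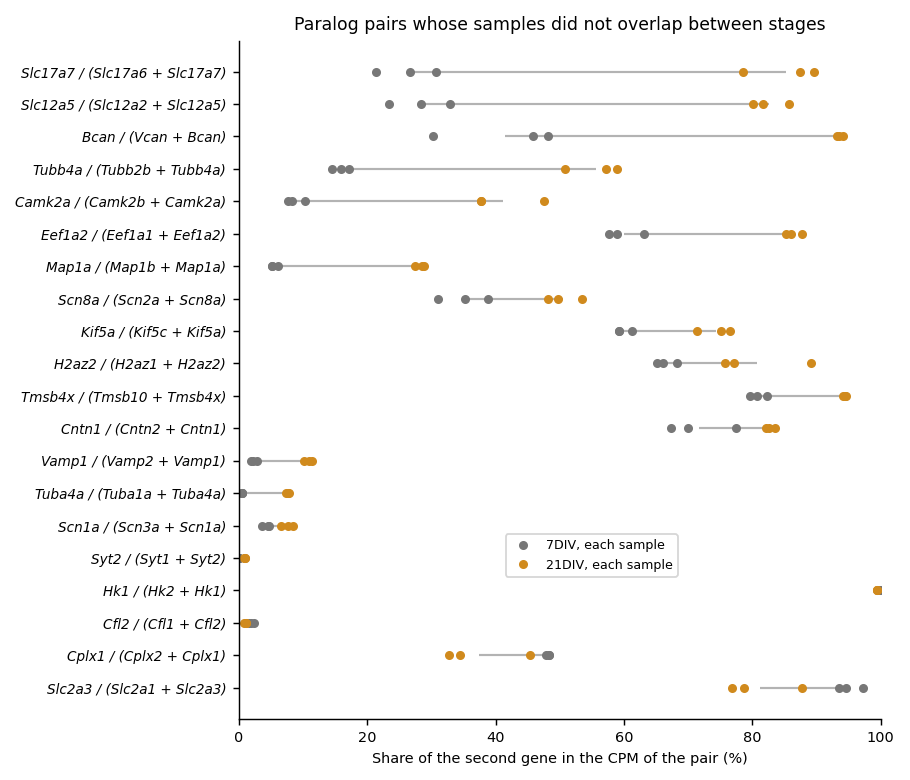
Points give the share in percent of the second gene in the summed CPM of a paralog pair in each sample at 7DIV (grey) and 21DIV (orange), with a line between the stage means, for the 20 pairs whose samples did not overlap. Pairs are ordered by the difference of the means, from Slc17a7 and Slc12a5, whose shares rose most, to Slc2a3, whose share fell most.

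The same contrast of stages was then taken in the 22 stimulated samples, 12 at 7DIV and 10 at 21DIV, which share no sample with the basal comparison. Codes in their descriptions also differ between the stages, so stage and whatever these mark cannot be told apart here either. The samples had received KCl or bicuculline plus 4-aminopyridine, each for 15 min or 3 h. There 11608 genes entered the same edgeR test, and at 21DIV 2668 (23.0%) were called higher and 2096 (18.1%) called lower. Of 1899 genes higher at rest and tested in both, 1499 (78.9%) were also higher under stimulation, which is 68.0% of the genes higher there. Of 1564 genes lower at rest, 1205 (77.0%) were also lower, which is 61.4% of the genes lower under stimulation. Only 4 genes were called in opposite directions, Acan, Fam13b, Pdlim1 and Wdr60, all outside the naming rule and chosen after their values were seen. Pdlim1, for example, had log2 fold changes of -1.27 at rest and 1.17 under stimulation (adjusted p of the difference 0.0149), and Acan -1.02 and 0.84 (0.133). In the unstimulated samples at 21DIV of the second experiment, however, Pdlim1 was at 23, 31 and 25.4 CPM against 12.8, 11.6 and 9.10 CPM at 7DIV, and Acan at 26.5, 52.9 and 23.1 CPM against 18.9, 22.6 and 14.2 CPM. For both genes every one of those samples lay above every sample at 7DIV, so the fall at rest was not seen there. The list of immature neuron genes had a median of -2.01 under stimulation and glycolysis 1.45, against -1.65 and 1.09 at rest. The list of immediate early genes changed sign, from -0.16 at rest to 0.62 under stimulation. Cell division genes also changed sign, from 0.49 to -0.11, with 2 of 26 higher and 1 lower. Over the 16 alternatives the median of the cell division genes at rest ranged from 0.10, without replicate 1 at 21DIV, to 0.65, and the differences between medians were not tested. In the 3 unstimulated samples at 21DIV of the second experiment, normalized separately, 1443 of the 1907 higher genes had every sample above every basal sample at 7DIV, and 1030 of the 1569 lower genes had every sample below. Both counts use the same samples at 7DIV that gave the calls, which favours agreement. The share over all tested genes was not computed, so the counts are a description. Some genes described above lay wholly on the other side in the second experiment. Rnd2 was at 150.1, 144 and 129.8 CPM, Atp6v1g2 at 513, 551 and 465 CPM and Tubb4b at 67.3, 81.2 and 55.1 CPM, below every sample at 7DIV. Syt4 was at 775, 911 and 802 CPM, Xbp1 at 282, 256 and 261 CPM and Slc17a6 at 144, 165 and 121 CPM, above every sample at 7DIV.

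**Figure D5:**
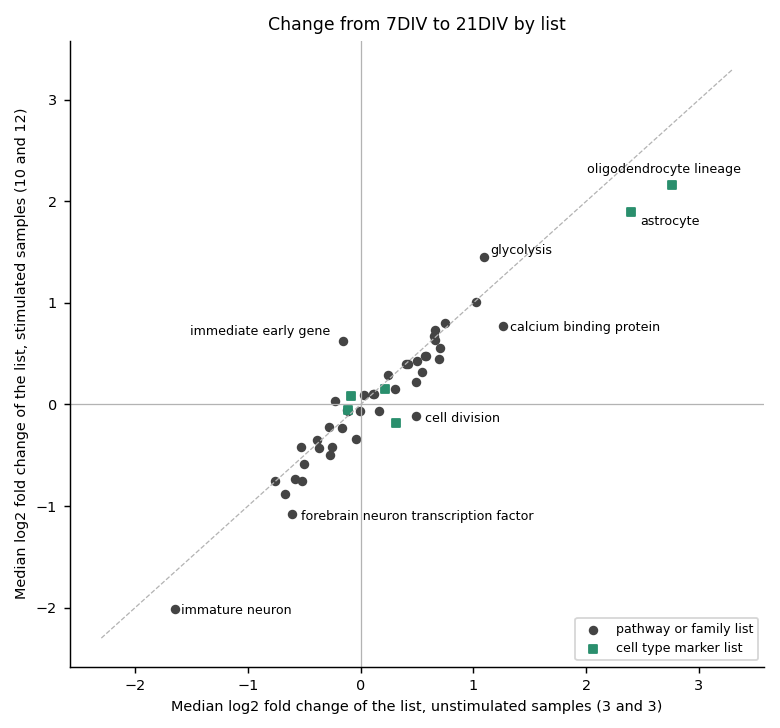
Each point is a list of at least 10 tested genes, with the median log2 fold change from 7DIV to 21DIV in unstimulated samples on the horizontal axis and in stimulated samples on the vertical axis; squares are cell type marker lists and the dashed line marks equal values. Most lists lie near the line, and immediate early genes (-0.16 and 0.62) lie farthest above it among the lists named.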

How the data were processed

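Per the labels and the study's methods, poly(A) RNA was sequenced as CEL-Seq2 3′ libraries, reads were aligned to mm10 with STAR, and ESAT assigned them to RefSeq transcripts. The deposited values are whole-number counts per transcript that the authors did not normalize; whether molecular identifiers were collapsed is not given in the sources used here. Of 97700 transcripts 78897 (80.8%) matched a gene symbol, and unmatched ones held 18.5% of counts. For 28488 genes the transcript with most counts stood for the gene, and summing over transcripts would give 3.13 times as many. In the table of the second experiment 24 columns of values were not used.

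A filter kept genes over 5 CPM in 2 or more of the 6 samples, which were tested with edgeR 4.0.16 in R 4.3.3 (TMM scaling, quasi-likelihood test, Benjamini-Hochberg adjustment), and a gene was called at an adjusted p under 0.05 and at least 1.5-fold. Stages were compared in the stimulated samples with stimulus and time as covariates, and in a fit over 28 samples, added after the data were seen, the difference of both stage changes was tested. In simulated data on 10160 genes, 97 were changed 2-fold and 97 were changed 4-fold. Of these 64.9% and 95.9% were recovered, with 8 unchanged genes called and none in the wrong direction. Far fewer genes changed there than were called in the data, so the scaling was not tested under so broad a change. Alternatives were DESeq2 1.42.0, other scalings, filters and thinning, a fit on 28 samples, summed transcripts, and leaving out each sample. The gene lists, pairs and naming rule (genes fixed by role, pairs, cell type markers and, per list, up to 3 largest called rises and 3 falls with average log2 CPM of at least 4 and no overlap) were chosen with earlier results of these data known. Sums and pair shares have no test. Promoter windows came from RefSeq. Figures were drawn with matplotlib 3.10.9. Samples were grouped by their labels, and differences between samples cover counting error and whatever else separates these libraries. Single values of some genes are not reported here, although the lists' counts, medians and sums include them.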

Additional observations from a re-analysis of the deposited data

Results flagged for a closer look

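For 18 genes of the lists the change from 7DIV to 21DIV in unstimulated samples differed from that in stimulated samples, by the interaction term of 1 edgeR fit over 28 samples with Benjamini-Hochberg adjustment over 11742 genes, of which 94 were called. Groups of 3 samples were not examined for outlying samples. Part of the genes named from the lists were chosen for their largest changes at rest, which favours such a difference. The 18 genes are therefore a description and not a share to set against the 94. The values below are the difference of the log2 fold changes, unstimulated minus stimulated.

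Immediate early genes were among them. Fos, with log2 fold changes of -2.23 at rest and -0.15 under stimulation, gave a difference of -2.17 (standard error 0.33, adjusted p = 0.00162), and Fosb gave -2.73 (0.42, 0.00162). Npas4 gave -1.86 (0.34, 0.00822), Nr4a2 -1.39 (0.34, 0.0453) and Nr4a3 -0.92 (0.23, 0.0469). The difference was negative for all 5 of these genes.

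Neuronal genes gave -1.97 (0.42, 0.0225) for Cartpt, -0.96 (0.23, 0.0451) for Pou3f1 and 0.49 (0.11, 0.0349) for Map1b, all of which fell in both sets. Camk4 gave 0.92 (0.22, 0.041), Atp2b2 0.84 (0.20, 0.0453) and Calb1 0.76 (0.19, 0.0453). The BAF subunit gene Phf10 gave -0.80 (0.20, 0.0453).

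Metabolic and secretory genes included Slc2a1, at -1.38 (0.32, 0.0361), and Ero1a, at -1.82 (0.42, 0.0358), both of which rose further under stimulation. P4hb gave -0.73 (0.18, 0.0453). Olig1 gave 1.31 (0.22, 0.00351), H2-D1 -1.30 (0.21, 0.00286) and Adamts1 -1.88 (0.38, 0.0149).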

How the results depend on the processing

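A test against a 1.5-fold change itself (glmTreat) called 1796 genes, 1103 higher and 693 lower, in place of 3476, 1907 and 1569. Without a filter on low counts 4551 genes were higher at 21DIV in the stimulated samples in place of 2668. The other alternatives stayed within 1.5 times the main counts, with 3057 genes for counts summed over transcripts, 3194 for thinned counts, 3380 for DESeq2 and 3812 without a filter. Leaving out 1 sample gave 2866 to 3393 genes, 1581 to 1858 higher and 1285 to 1536 lower. The replicate block, with numbers 2 and 3 shared by both stages, gave 3072 genes (1689 higher, 1383 lower). Deviations of same-numbered samples correlated at 0.00146 and -0.0147, and those of differently numbered samples at -0.0341 to 0.0275. With so few samples these values cannot decide whether same-numbered samples share an origin. In the stimulated samples the replicate block gave 4755 genes (2656 higher, 2099 lower). Of 285 named genes that were called 206 were called under every one of the 16 alternatives in which they were tested, 79 lost the call under at least 1 (39 only under glmTreat), and none reversed. Low levels at 7DIV are limited by depth, 3 counts being up to 1.81 CPM there.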
